A study of Mus musculus with 82 samples.

Results

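The 33 ear cartilage genes are a set of genes used by chondrocytes, the cells of cartilage, taken from the deposited tables by gene name. The genes were chosen with earlier results of these data known. All 33 names were found once among the 56941 genes listed in each table, and 32 of them had enough counts to be tested in each of 2 experiments. Scrg1 did not pass the filter on low counts and had at most 0.636 CPM (counts scaled to a common library size) in any library. The tissue was the right ear of C57BL/6J Rj female mice, sampled by punch and sequenced as 82 bulk RNA libraries in 14 groups. In the time course (52 libraries) the groups were imiquimod with IDOR-1117-2520, which blocks CCR6, a chemokine receptor of IL-17-producing T cells, imiquimod without it, and sham, each at days 2, 5 and 8. In the start-day experiment (30 libraries) imiquimod ears received the drug from day 0, day 3 or day 5, and were set beside imiquimod ears without the drug and sham ears. Imiquimod, an agonist of TLR7, was applied to the ears once a day as a 5% cream from day 0, and the drug was given in the drinking water. The protocol text describes drug given from at least 1 day before the cream, while the titles and treatment labels of the start-day groups name the start days, and those were followed. The time label of these 3 drug groups reads Day 8, Day 5 and Day 3 for starts at days 0, 3 and 5, and that of their imiquimod and sham groups reads Day 8. Day 3 comes before the drug start at day 5, so this label cannot be the sampling day of that group. The labels equal the days from each start to day 8, which would give a shared sampling day. No label states that day for the drug groups from days 3 and 5. Any difference in sampling day from their imiquimod and sham groups could not be told apart from the drug. The sham groups carry the treatment label Vehicle. Every group had 6 libraries except sham at day 5, which had 4. Whether each library came from its own animal is not stated in the labels, and p-values therefore reflect variation among libraries, which may be technical in part.

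The pinna is stiffened by a thin plate of elastic cartilage, and an ear punch takes that plate together with epidermis, dermis, fat, muscle, nerve and vessels. Chondrocytes build a matrix in which fibrils of type II collagen, with type XI collagen inside and type IX collagen on the surface, hold aggrecan, a large proteoglycan whose sulphated chains bind water. SOX9, acting with SOX5 and SOX6, is the transcription factor that switches on these matrix genes. Several genes of the set are also used outside cartilage. Sox9 is active in hair follicles, Trps1 and Fgfr3 in skin epithelium, and Comp, Cilp and Prg4 in tendon, joint lining or fibroblasts.

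Because the matrix genes are known targets of SOX proteins, the promoters were searched for AACAAT, a core sequence that these proteins bind, on either strand. Promoter windows of 300 bases (250 before to 50 after the start of transcription) were taken from RefSeq on the GRCm38.p6 build, which is not the GRCm39 build of the counts. Of the 33 genes, 24 matched by symbol, with 33 windows in all. The motif was present in 4 of the 33 windows (12.1%), those of Cilp2, Epyc and 1 of the 6 windows of Sox6, against 10.7% of all 32851 windows, so the share was near the background. The window of Acan, the aggrecan gene, holds no match and is shown with that of Cilp2, which codes for a cartilage intermediate layer protein and holds 1. Acan lies at chr7:79052976-79053275 on the + strand and Cilp2 at chr8:69887343-69887642 on the - strand. Each is written 5′ to 3′, and the capitals mark the motif, which begins 241 bases before the start of Cilp2. The GC content is 74% in the Acan window and 61.3% in the Cilp2 window. A match describes letters only and is not a measured binding site.
Acan: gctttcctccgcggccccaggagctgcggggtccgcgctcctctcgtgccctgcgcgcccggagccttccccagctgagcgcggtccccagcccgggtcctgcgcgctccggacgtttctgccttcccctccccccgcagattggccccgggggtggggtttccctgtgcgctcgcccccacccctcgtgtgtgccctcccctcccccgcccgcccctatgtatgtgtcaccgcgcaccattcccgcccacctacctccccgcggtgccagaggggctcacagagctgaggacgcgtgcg
Cilp2: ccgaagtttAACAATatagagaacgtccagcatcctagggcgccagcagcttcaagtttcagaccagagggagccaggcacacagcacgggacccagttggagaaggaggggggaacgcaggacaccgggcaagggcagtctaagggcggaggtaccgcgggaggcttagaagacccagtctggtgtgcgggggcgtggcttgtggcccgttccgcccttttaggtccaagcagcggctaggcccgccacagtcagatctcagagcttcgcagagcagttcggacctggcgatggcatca

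Time course libraries held 13.1 M to 35.4 M counts, and start-day libraries 24.1 M to 35.5 M. Levels are given as CPM on library sizes scaled by the trimmed mean of M values (TMM), and they do not correct for transcript length, so they are compared between libraries and not between genes. Differences are log2 fold changes with their standard error after ±, and a gene was called at an adjusted p under 0.05 by edgeR's quasi-likelihood test with Benjamini-Hochberg adjustment over all genes tested (18780 in the time course, 18434 in the start-day experiment). In the text, 3 values given for a group are its lowest, median and highest library. Shares of all genes refer to calls at the adjusted p. The shares of all genes at an unadjusted p under 0.05, or with a positive log2 fold change, were not counted. Counts of cartilage genes of those kinds therefore have no background beside them.

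Most of the cartilage genes were well detected in sham ears, apart from Scrg1, Epyc and Matn1, whose sham group means were 0.107 to 0.214, 0.269 to 0.682 and 0.74 to 1.35 CPM. The levels of the tested genes did not pass the test for a difference among the sham days. Across the 3 sham groups of the time course, 0 of 32 genes were called by an F test (5.52% of all genes tested were called), 2 had an unadjusted p under 0.05, and DESeq2 also called 0. As a measure of the whole set, the log2 level of each gene minus its mean in the sham libraries of the same experiment was taken, and the median over the 32 genes was computed for each library. This median was -0.07, 0.07 and 0.15 in sham ears at day 2, -0.21, -0.04 and 0.12 at day 5, -0.15, 0.02 and 0.09 at day 8 and -0.10, 0.00 and 0.12 in the start-day experiment. Sham values lie around 0 because the mean of all sham libraries of the experiment was subtracted. Only their spread, including that among the sham days of the time course, is a measurement.

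The set was lower in imiquimod ears at each day and in both experiments. On day 2 the median over genes was -0.98, -0.78 and -0.45 with the drug and -1.08, -0.91 and -0.79 in imiquimod ears. At day 5 it was -1.03, -0.91 and -0.55 with the drug and -1.48, -1.35 and -1.24 in imiquimod ears. At day 8 it was -1.25, -1.12 and -1.05 with the drug and -1.43, -1.35 and -1.09 in imiquimod ears. The drug and imiquimod libraries overlapped at days 2 and 8 and did not overlap at day 5, where each drug library stood above each imiquimod library. Start-day libraries had a median of -1.57, -1.36 and -1.28 with the drug from day 0, -1.58, -1.32 and -1.25 from day 3, -1.51, -1.48 and -1.45 from day 5, and -1.92, -1.79 and -1.75 in imiquimod ears without the drug. None of the 18 drug libraries there overlapped the 6 imiquimod libraries, and no library with imiquimod in either experiment reached the sham range. In bulk RNA, fewer chondrocytes, less RNA per chondrocyte and a larger share of RNA from other cells cannot be told apart.

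**Figure D1:**
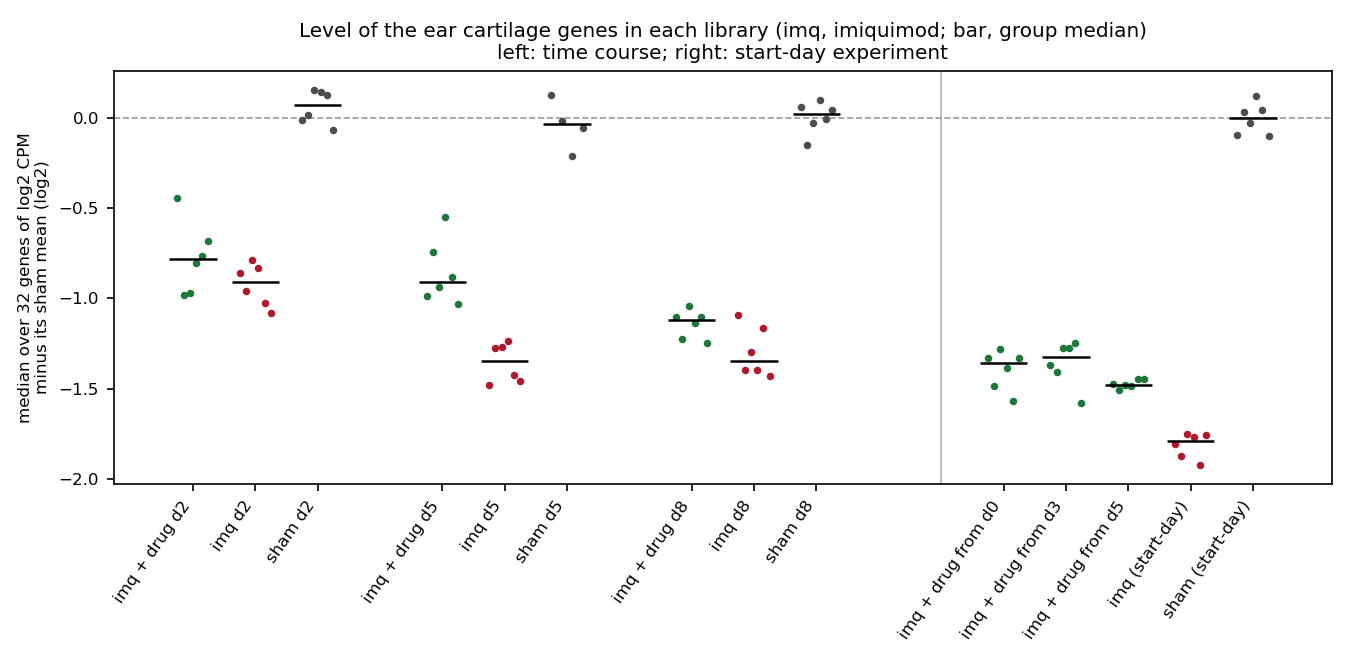
The median over 32 cartilage genes of log2 CPM minus its sham mean is plotted for each library (1 point), with the group median as a bar; green is imiquimod with the drug, red is imiquimod and grey is sham. Sham libraries lie around 0, imiquimod libraries lie lowest with medians of -0.91, -1.35, -1.35 and -1.79, and the drug groups stand clear of imiquimod at day 5 and in the start-day experiment.

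The first comparison asks what imiquimod did to these genes. At day 2, 27 of 32 genes fell and 1 rose, where 28.5% and 29.2% of all genes tested were called lower and higher. At day 5, 28 fell and 2 rose, against 35.9% and 34.6% of all genes. At day 8, 27 fell and 2 rose, against 33.6% and 34.5%. The start-day experiment had 27 genes lower and 1 higher, against 39.9% and 38.1%. The median log2 fold change over the set was -0.92, -1.37 and -1.26 at days 2, 5 and 8 and -1.84 in the start-day experiment, while the median over all genes lay between -0.04 and -0.01. A total of 26 genes fell in all 4 comparisons, and the same 27 genes fell at day 8 and in the start-day experiment. How many of all genes were shared in this way was not counted. Because the set was chosen with earlier results known, its counts beside those of all genes are a description. Imiquimod and sham libraries did not overlap for 25 of 32 genes, against 34.5% of all genes tested at day 2, for 28 of 32 genes, against 57.2% of all genes tested at day 5, for 25 of 32 genes, against 48.3% of all genes tested at day 8 and for 28 of 32 genes, against 61.7% of all genes tested in the start-day experiment. No call of a cartilage gene in these 4 comparisons was lost when any single library was left out.

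**Figure D2:**
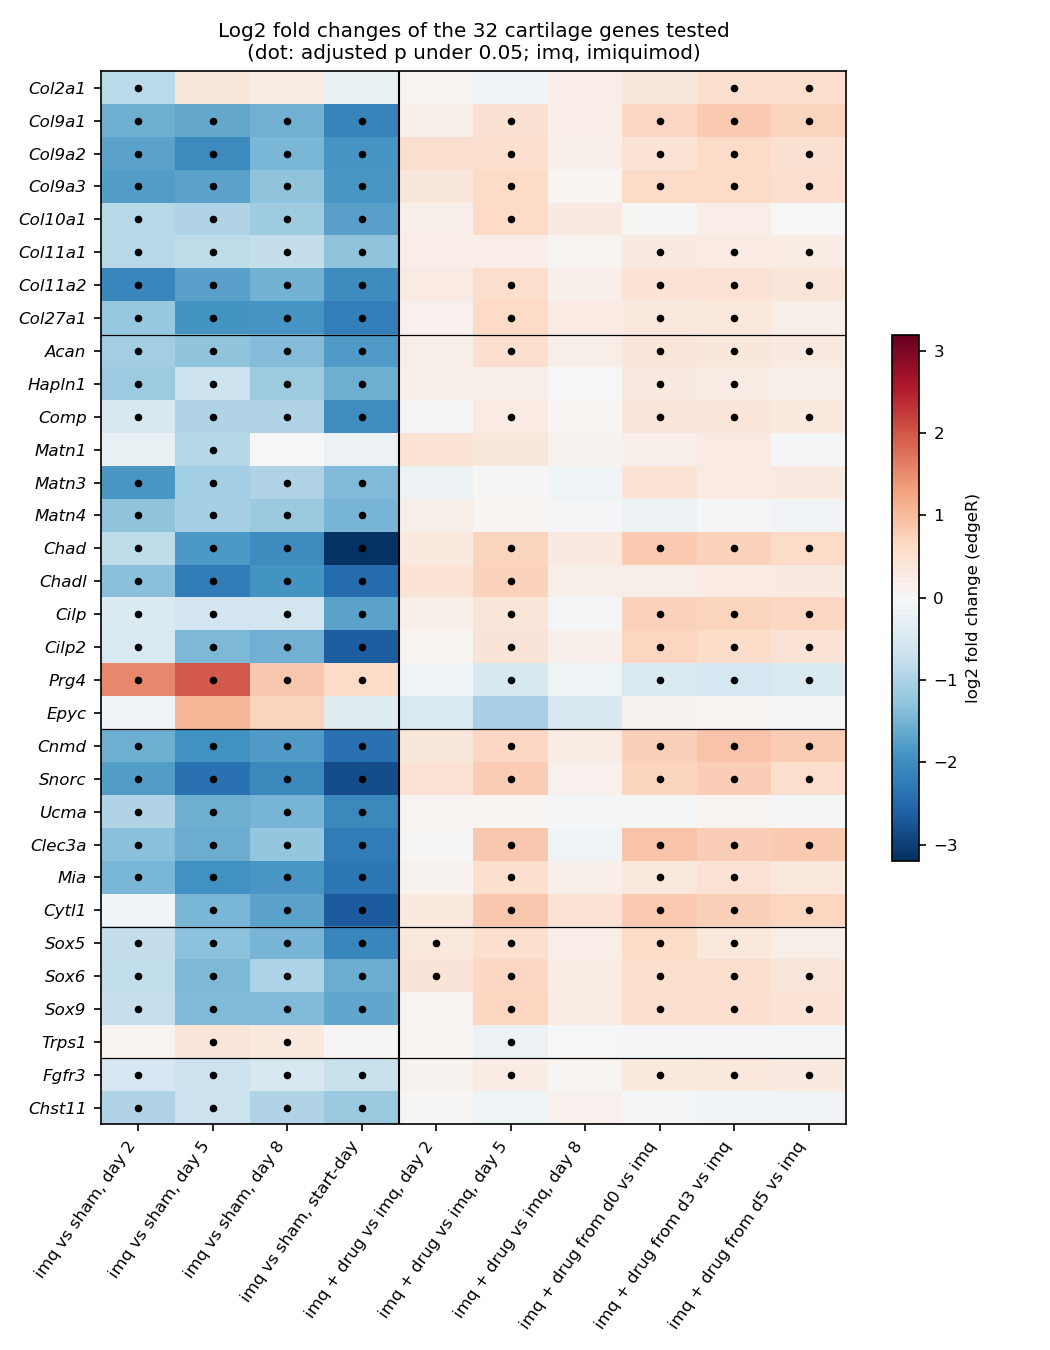
Each cell is the edgeR log2 fold change of 1 cartilage gene (rows, grouped by role from collagens at the top to receptor and sulphotransferase at the bottom) in 1 comparison (columns), with a dot where the adjusted p is under 0.05. The left columns, imiquimod against sham, are blue for most genes with Prg4 in red, and the right columns, the drug against imiquimod, are pale red at day 5 and for the 3 start days, where 23, 22, 23 and 19 genes were called.

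Among the cartilage collagens, 8 of 8 fell at day 2 and 7 of 8 fell in each of the other 3 comparisons. Col11a2, a chain of the type XI collagen inside the fibrils, changed most at day 2 with -2.09 ± 0.16 (adjusted p = 8.61e-15). At day 2 the Col11a2 levels were 28.2, 45.4 and 65.1 CPM in ears with imiquimod and the drug, 26, 36.1 and 46.3 CPM in imiquimod ears and 116, 156 and 182 CPM in sham ears. At day 5 the Col11a2 levels were 49.7, 62.5 and 84.3 CPM in ears with imiquimod and the drug, 34.7, 41.7 and 51.5 CPM in imiquimod ears and 112, 135 and 187 CPM in sham ears. At day 8 the Col11a2 levels were 54.2, 60.0 and 69.9 CPM in ears with imiquimod and the drug, 48.3, 51.2 and 62.8 CPM in imiquimod ears and 118, 157 and 166 CPM in sham ears. Its imiquimod and sham libraries did not overlap on any day. The start-day levels of Col11a2 were 38.4, 45.8 and 50.9 CPM with the drug from day 0, 41.7, 46.1 and 47 CPM with the drug from day 3, 37.5, 44 and 46.7 CPM with the drug from day 5, 29.95, 32.7 and 36 CPM with imiquimod alone and 118, 129 and 156 CPM in sham. The other chains of types IX and XI (Col9a1, Col9a2, Col9a3 and Col11a1), Col10a1, the collagen of hypertrophic chondrocytes, and Col27a1, a further fibrillar collagen of cartilage, fell in all 4 comparisons with log2 fold changes of -2.19 to -0.76. The sham library numbered 38 at day 8 had 118 CPM of Col11a2, below the other sham libraries of that day, and it was still above each imiquimod library.

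Col2a1, which codes for the main fibril collagen of cartilage, was the exception. It fell at day 2 (-0.85 ± 0.20 (adjusted p = 0.000382)) and did not pass the test afterwards, with log2 fold changes of 0.37 (adjusted p = 0.132) at day 5, 0.25 (adjusted p = 0.263) at day 8 and -0.23 (adjusted p = 0.188) in the start-day experiment. Single libraries moved these values without bringing a call, to between 0.15 (without sham library 38) and 0.41 (without sham library 40) at day 8 and between -0.31 (without sham library 1) and -0.10 (without sham library 4) in the start-day experiment. At day 2 the Col2a1 levels were 19.8, 22.8 and 34.7 CPM in ears with imiquimod and the drug, 19.8, 23.3 and 34.5 CPM in imiquimod ears and 32.2, 38.7 and 67.5 CPM in sham ears. At day 5 the Col2a1 levels were 29.3, 48.4 and 80.3 CPM in ears with imiquimod and the drug, 40.8, 49.7 and 70.0 CPM in imiquimod ears and 37.8, 39.6 and 47.4 CPM in sham ears. At day 8 the Col2a1 levels were 55.5, 65.4 and 84.3 CPM in ears with imiquimod and the drug, 49.9, 56 and 76.9 CPM in imiquimod ears and 31.4, 48.6 and 76.2 CPM in sham ears. The imiquimod and sham ranges overlapped on each day, and the imiquimod medians of days 5 and 8 were above the sham medians. The start-day levels of Col2a1 were 39, 49.3 and 58.5 CPM with the drug from day 0, 41.4, 58.7 and 65.8 CPM with the drug from day 3, 45.6, 53 and 70.9 CPM with the drug from day 5, 33.9, 38.5 and 43.7 CPM with imiquimod alone and 30.8, 42.1 and 64.2 CPM in sham. The imiquimod range there lay inside the sham range.

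Of the 12 proteoglycans and other matrix proteins, 9 fell at day 2, 10 at day 5, 9 at day 8 and 9 in the start-day experiment. Acan fell in all 4, with log2 fold changes of -1.10 ± 0.10 (adjusted p = 6.32e-13), -1.29 ± 0.11 (adjusted p = 2.27e-14) and -1.38 ± 0.10 (adjusted p = 1.96e-16) at days 2, 5 and 8 and -1.81 ± 0.06 (adjusted p = 6.88e-22) in the start-day experiment. At day 2 the Acan levels were 160.1, 206 and 277 CPM in ears with imiquimod and the drug, 157, 171 and 240.4 CPM in imiquimod ears and 359.6, 387 and 458 CPM in sham ears. At day 5 the Acan levels were 182, 206 and 274 CPM in ears with imiquimod and the drug, 138, 146 and 165 CPM in imiquimod ears and 308, 372 and 406 CPM in sham ears. At day 8 the Acan levels were 156, 165 and 177 CPM in ears with imiquimod and the drug, 121, 147 and 166 CPM in imiquimod ears and 340.3, 385 and 407 CPM in sham ears. Each sham library was above each library with imiquimod, with or without the drug. The start-day levels of Acan were 106, 126 and 138 CPM with the drug from day 0, 109.6, 123 and 131 CPM with the drug from day 3, 99.2, 114 and 127 CPM with the drug from day 5, 89.3, 94.9 and 99.1 CPM with imiquimod alone and 289, 332 and 363 CPM in sham. The start-day order was the same, with imiquimod alone lowest and sham highest and no overlap between them.

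**Figure D3:**
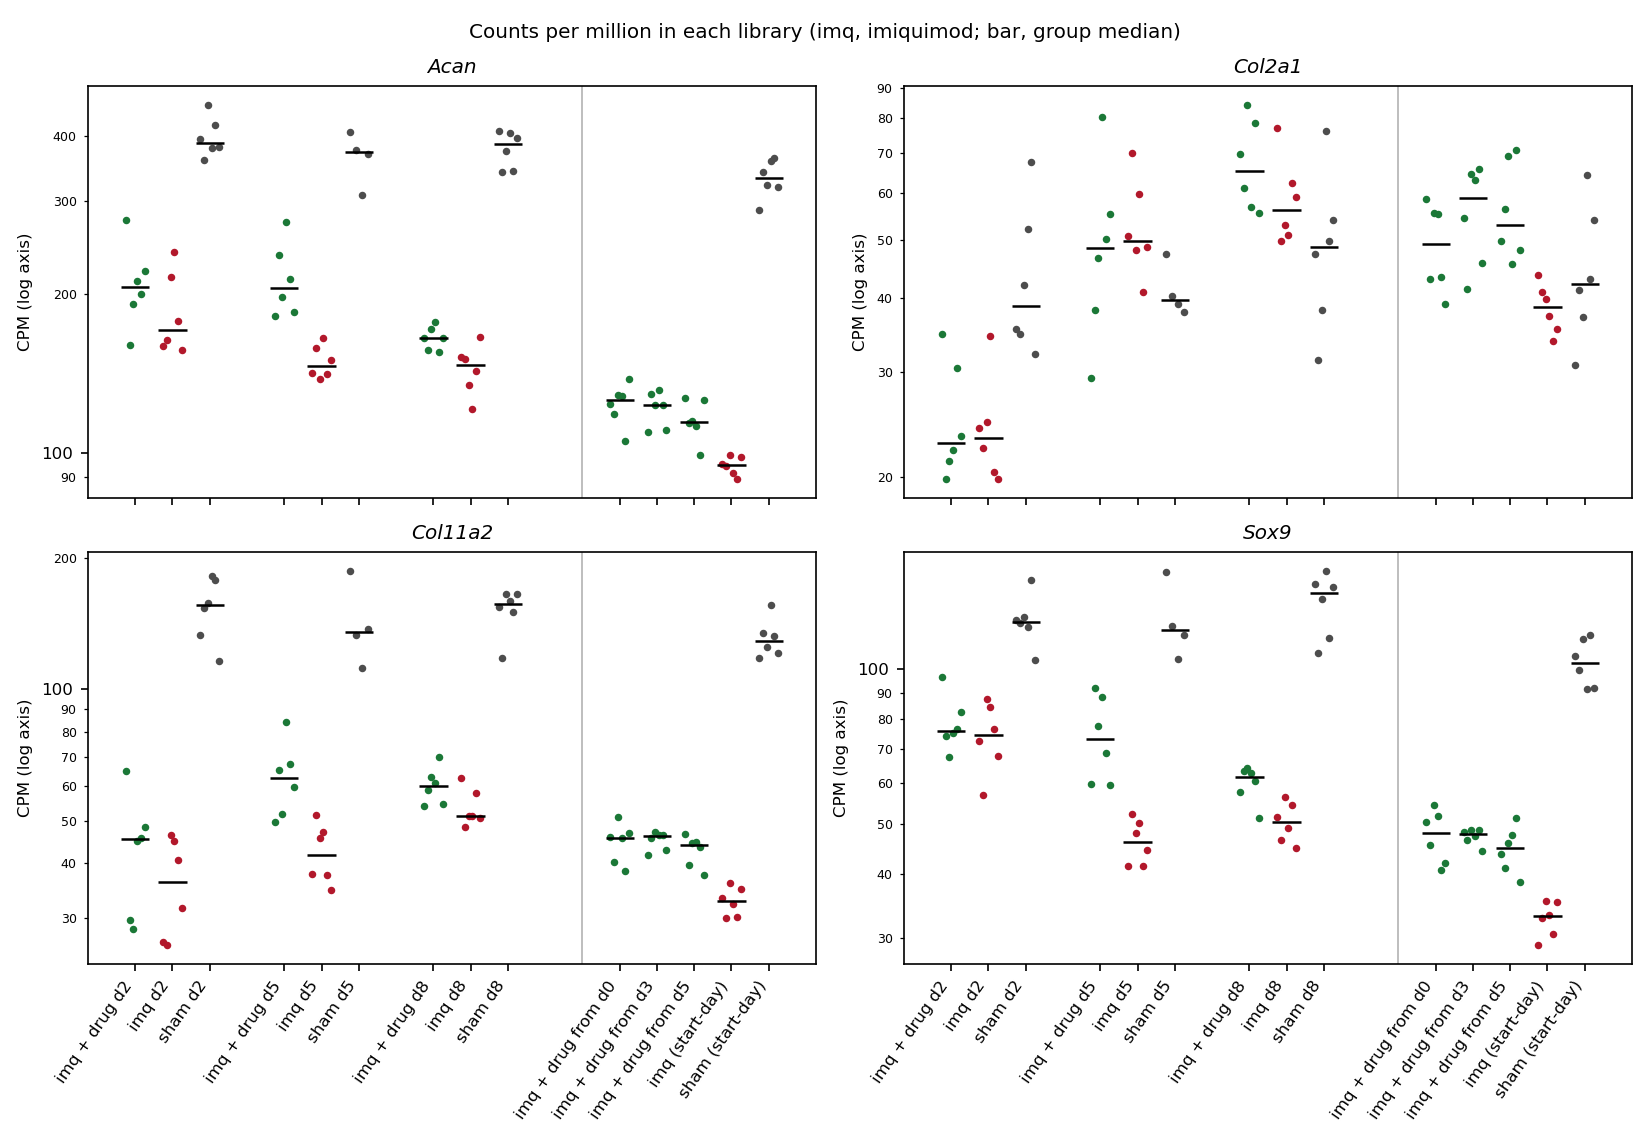
CPM (log axis) of Acan, Col2a1, Col11a2 and Sox9 in each library, with the group median as a bar; green is imiquimod with the drug, red is imiquimod and grey is sham. Acan, Col11a2 and Sox9 are below sham in the groups with imiquimod, whereas Col2a1 is lower at day 2 and overlaps sham at days 5 and 8.

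Further matrix genes were followed at day 8 in every library as examples. Comp, a matrix protein that binds collagens, had 47.6, 55.1 and 62.6 CPM with the drug, 43.6, 52.9 and 60.6 CPM in imiquimod ears and 88.3, 101 and 127 CPM in sham ears. Hapln1, the link protein that fixes aggrecan to hyaluronan, had 9.86, 12.3 and 14.5 CPM with the drug, 10.8, 12.6 and 14.1 CPM in imiquimod ears and 24.2, 27.2 and 33.1 CPM in sham ears. Cilp, a cartilage intermediate layer protein, had 122, 166 and 209.98 CPM with the drug, 143, 166 and 198 CPM in imiquimod ears and 221, 257 and 297 CPM in sham ears. For these 3 genes the drug and imiquimod ranges overlapped and both lay below the sham range. Prg4, or lubricin, a lubricant glycoprotein of joint surfaces, went the other way, with 26, 29.6 and 41.8 CPM with the drug, 27.6, 33.8 and 48.1 CPM in imiquimod ears and 14.2, 15.4 and 37.3 CPM in sham ears. A single sham library (number 40, 37.3 CPM) lay within the imiquimod range of Prg4 and the other 5 lay below it.

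Prg4 rose in all 4 comparisons, with 1.53 ± 0.20 (adjusted p = 1.66e-08) at day 2, 1.97 ± 0.24 (adjusted p = 6.04e-10) at day 5, 0.87 ± 0.20 (adjusted p = 0.000228) at day 8 and 0.61 ± 0.12 (adjusted p = 5.1e-05) in the start-day experiment. The genes that fell most were mainly in this group and among the small secreted proteins. At day 2 they were Col11a2, Matn3, a matrilin that bridges matrix fibrils, with -1.87 ± 0.32 (adjusted p = 1.84e-06), and Snorc, a small membrane proteoglycan of chondrocytes, with -1.80 ± 0.19 (adjusted p = 2.37e-11). At day 5 they were Snorc -2.38 ± 0.21 (adjusted p = 4.54e-14), Chadl -2.24 ± 0.18 (adjusted p = 1.05e-15) and Col9a2 -2.04 ± 0.20 (adjusted p = 2.81e-12). Chad and Chadl code for chondroadherin, a leucine-rich repeat protein that binds cells to cartilage collagen, and its relative. At day 8 they were Snorc -2.06 ± 0.20 (adjusted p = 4.68e-13), Chad -2.02 ± 0.13 (adjusted p = 9.88e-18) and Chadl -1.91 ± 0.17 (adjusted p = 2.06e-14). Those of the start-day experiment were Chad -3.16 ± 0.08 (adjusted p = 8.57e-24), Snorc -2.83 ± 0.14 (adjusted p = 7.51e-19) and Cytl1 -2.65 ± 0.09 (adjusted p = 2.71e-21). Matn4, a further matrilin, and Cilp2 also fell in all 4 comparisons. The day 2 value of Matn3 rested on few counts, with 0.457 to 0.814 CPM in imiquimod ears. Matn1 was called at day 5 alone (-0.90 (adjusted p = 0.00219)), and Epyc, epiphycan, was not called by edgeR with all libraries in. Its day 5 difference was 1.07 (adjusted p = 0.0507). DESeq2 called it (adjusted p = 0.0411), as did edgeR with relative log expression (RLE) scaling (0.0487), and it passed the threshold when sham library 19, imiquimod library 27 or imiquimod library 30 was left out (adjusted p 0.032 to 0.0481).

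The other secreted and membrane proteins fell nearly as a block, with 5 of 6 called lower at day 2 and 6 of 6 in each of the other 3 comparisons. Cnmd, chondromodulin, an inhibitor of vessel growth in cartilage, had 17.2, 21.8 and 26.9 CPM with the drug, 16.2, 17 and 24.5 CPM in imiquimod ears and 59.5, 65.1 and 68.2 CPM in sham ears at day 8. The sham libraries did not overlap the others. Ucma, a vitamin K-dependent matrix protein, Clec3a, a C-type lectin of cartilage, and Mia, a small protein secreted by chondrocytes and melanoma cells, fell in all 4 comparisons with log2 fold changes of -2.30 to -0.96. Cytl1, a small cytokine-like secreted protein, was the late one. It did not pass the test at day 2 (-0.08 (adjusted p = 0.675)) and had fallen at day 5 (-1.46 (adjusted p = 2.57e-10)) and day 8 (-1.72 (adjusted p = 4.5e-13)).

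The 3 SOX factors fell with the matrix genes, with log2 fold changes of -2.09 to -0.74 over the 4 comparisons. At day 2 the Sox9 levels were 67.4, 75.9 and 96.5 CPM in ears with imiquimod and the drug, 56.9, 74.5 and 87.5 CPM in imiquimod ears and 104, 124 and 149 CPM in sham ears. At day 5 the Sox9 levels were 59.6, 73 and 91.8 CPM in ears with imiquimod and the drug, 41.4, 46.3 and 52.3 CPM in imiquimod ears and 105, 119 and 154 CPM in sham ears. At day 8 the Sox9 levels were 51.3, 61.7 and 64.1 CPM in ears with imiquimod and the drug, 45, 50.4 and 56.5 CPM in imiquimod ears and 108, 141 and 155 CPM in sham ears. The sham range was above the imiquimod range on each day. The start-day levels of Sox9 were 40.7, 47.9 and 54.4 CPM with the drug from day 0, 44.3, 47.8 and 48.8 CPM with the drug from day 3, 38.6, 44.9 and 51.5 CPM with the drug from day 5, 29.1, 33.1 and 35.5 CPM with imiquimod alone and 91.7, 103 and 117 CPM in sham. Trps1, a zinc finger repressor of cartilage growth that is also strong in hair follicles, did not fall. It was called higher at day 5 (0.40 ± 0.08 (adjusted p = 3.72e-05)) and day 8 (0.30 ± 0.07 (adjusted p = 0.000359)). Fgfr3, the growth factor receptor that restrains chondrocyte division, and Chst11, which sulphates chondroitin chains, fell in all 4 comparisons with log2 fold changes of -1.19 to -0.51.

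The size of the imiquimod effect changed over the days for part of the set, at a share near that of all genes. An F test of the imiquimod minus sham difference among days 2, 5 and 8 called 13 of 32 genes, or 16 at an unadjusted p under 0.05, where 33.4% of all genes tested were called. Cilp2 (edgeR adjusted p = 6.34e-09) had differences of -0.49, -1.43 and -1.53 at days 2, 5 and 8. Cytl1 (adjusted p = 2.01e-07) had -0.08, -1.46 and -1.72, and Chad (adjusted p = 2.04e-06) had -0.82, -1.84 and -2.02. These 3 genes were further below sham at days 5 and 8 than at day 2. Sox9 had -0.74, -1.42 and -1.41 (adjusted p = 0.000414), Sox5 -0.77, -1.31 and -1.48 (adjusted p = 0.00156), and Sox6 -0.79, -1.45 and -0.99 (adjusted p = 0.00718). The SOX genes were lowest against sham at day 5 or 8. Hapln1 moved differently, with -1.15, -0.69 and -1.15 (adjusted p = 0.0362). Col2a1, Col27a1, Comp, Chadl, Prg4 and Ucma were also called. For Acan and the 3 chains of type IX collagen the test among days was not passed.

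Ratios to Acan within a library do not depend on how libraries are scaled and show where members of the set changed unequally. The mean log2 ratio of Col2a1 to Acan was -2.93 ± 0.17 in imiquimod ears and -3.22 ± 0.38 in sham ears at day 2 (SD, n = 6 each), a difference of 0.29 (exact permutation, adjusted p = 0.144). At day 5 it was -1.51 ± 0.20 in imiquimod ears and -3.14 ± 0.14 in sham ears (SD, n = 6 and 4), a difference of 1.64 (exact permutation, adjusted p = 0.019). At day 8 it was -1.31 ± 0.22 in imiquimod ears and -2.98 ± 0.37 in sham ears (SD, n = 6 each), a difference of 1.67 (exact permutation, adjusted p = 0.00693). The start-day ratio was -1.30 ± 0.12 in imiquimod ears and -2.92 ± 0.32 in sham ears, a difference of 1.62 (exact permutation, adjusted p = 0.00693). From day 5 on, the imiquimod and sham ratios did not overlap, so that Col2a1 made up more of the pair's counts in each imiquimod library than in any sham library.

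Col11a2 went the other way at day 2, where its log2 ratio to Acan was -2.38 ± 0.21 in imiquimod ears and -1.39 ± 0.25 in sham ears (SD, n = 6 each), a difference of -0.999 (exact permutation, adjusted p = 0.00693). The difference was -0.45 (exact permutation, adjusted p = 0.019) at day 5, -0.11 (exact permutation, adjusted p = 0.314) at day 8 and -0.19 (exact permutation, adjusted p = 0.00693) in the start-day experiment. Col9a1 differed by -0.45 (exact permutation, adjusted p = 0.0312) at day 2, -0.35 (exact permutation, adjusted p = 0.0312) at day 5, -0.14 (exact permutation, adjusted p = 0.388) at day 8 and -0.32 (exact permutation, adjusted p = 0.00693) in the start-day experiment. Both collagen chains thus fell more than Acan at days 2 and 5. Sox9 differed by 0.36 (exact permutation, adjusted p = 0.0173) at day 2, -0.13 (exact permutation, adjusted p = 0.144) at day 5, -0.01 (exact permutation, adjusted p = 0.911) at day 8 and 0.16 (exact permutation, adjusted p = 0.144) in the start-day experiment. It fell less than Acan at day 2. These are two-sided tests over all relabellings of the libraries, adjusted over 16 tests. The Col9a1 call of day 2 was lost without sham library 1, 2, 4 or 5 or imiquimod library 7, 8 or 11 (7 of 12 libraries), and that of day 5 without sham library 19, 21 or 22 or imiquimod library 25, 26, 28, 29 or 30 (8 of 10 libraries). Over all libraries left out in turn, the difference was -0.53 to -0.38 at day 2 and -0.41 to -0.27 at day 5. The day 2 ratio of Col2a1 passed the threshold without sham library 5 (0.41, exact permutation, adjusted p = 0.0416).

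**Figure D4:**
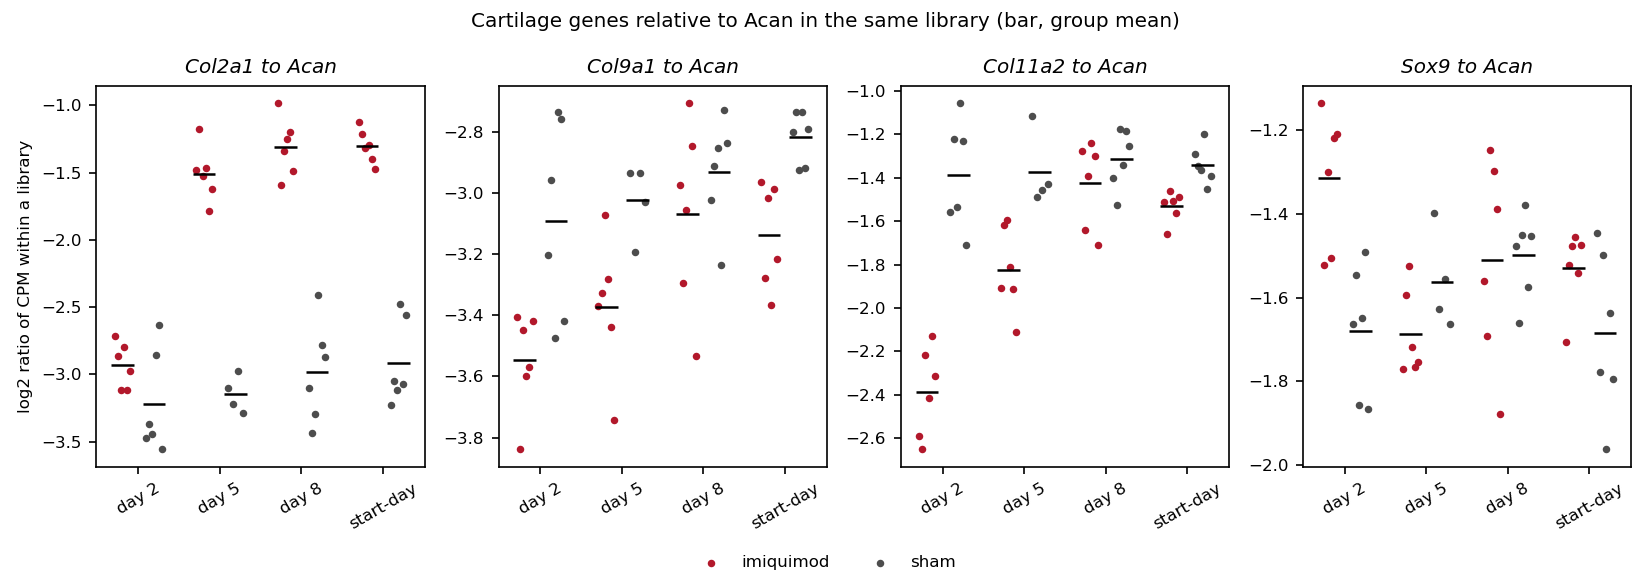
Log2 ratio of the CPM of Col2a1, Col9a1, Col11a2 and Sox9 to that of Acan within each library (points), imiquimod in red left of sham in grey, with the group mean as a bar; the y axes differ between panels. The Col2a1 ratio stands 1.64, 1.67 and 1.62 above sham at day 5, at day 8 and in the start-day experiment, with no overlap.

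The imiquimod minus sham difference was more negative in the start-day experiment than at day 8 of the time course. In a joint edgeR fit of all 82 libraries, chosen after seeing the data, the difference between both effects was called for 13 of 32 genes (21 at an unadjusted p under 0.05), where 21.4% of the 19455 genes tested were called. The 13 genes were all more negative in the start-day experiment. The start-day effect minus the day 8 effect was -1.10 for Chad (adjusted p = 2.16e-07), -1.08 for Cilp (adjusted p = 4.9e-06), -1.05 for Cilp2 (adjusted p = 8.39e-10) and -0.99 for Comp (adjusted p = 5.61e-09). For Acan it was -0.38 (adjusted p = 0.0225), and the call also covered Col9a1, Col11a1, Snorc, Ucma, Clec3a, Cytl1, Sox5 and Sox6. The experiment and the size of the effect cannot be told apart here.

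**Figure D5:**
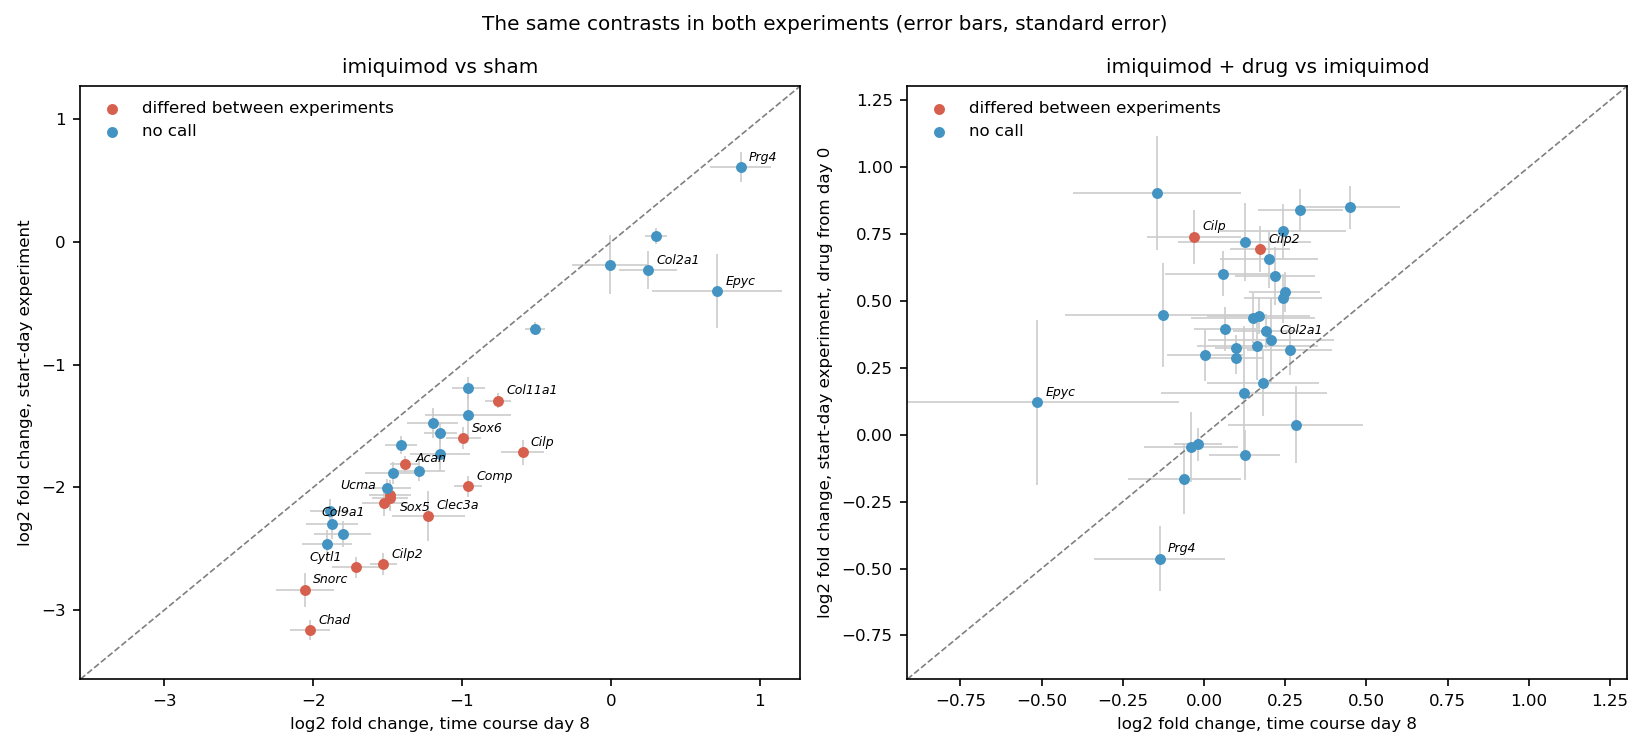
Log2 fold changes of the 32 cartilage genes in the start-day experiment (y axis) against day 8 of the time course (x axis), for imiquimod against sham on the left and for the drug against imiquimod on the right, with standard errors as bars and the line of equal values dashed. Genes whose effect differed between experiments in the joint fit are red, 13 on the left and 2 on the right, and the points on the left lie below the dashed line.

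The next comparison asks what the CCR6 inhibitor changed in imiquimod ears. At day 2 it changed little: 2 of 32 genes were called, both higher, against 9.61% of all genes lower and 6.9% higher. They were Sox5 0.35 ± 0.12 (adjusted p = 0.0336) and Sox6 0.42 ± 0.11 (adjusted p = 0.00966), SOX factors that work beside SOX9. In all, 9 genes had an unadjusted p under 0.05, and 28 of 32 log2 fold changes were positive, with a median of 0.17 against 0.01 over all genes. How many of all genes had such a p or a positive change was not counted. The drug and imiquimod libraries overlapped for each of the 32 genes, and only 1.74% of all genes tested did not overlap. The Sox5 call was lost without imiquimod library 9 or 11 or drug library 13, 15 or 16 (adjusted p 0.0771 to 0.14). Calls were gained for Chadl without imiquimod library 7 or 12 or drug library 14 (adjusted p 0.0204 to 0.0265), for Col9a2 without imiquimod library 7 or drug library 14 or 17 (0.0122 to 0.0474), for Snorc without imiquimod library 7 or 12 (0.0181 to 0.0443) and for Col11a1 without imiquimod library 7 (0.0376).

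At day 5 most of the set was higher with the drug than without it. Of 32 genes, 21 were called higher and 2 lower, where 18.3% and 17.2% of all genes tested were called higher and lower, and the median was 0.50 against 0.02 over all genes. The largest were Cytl1 0.86 ± 0.16 (adjusted p = 2.97e-05), Clec3a 0.85 ± 0.24 (adjusted p = 0.00522) and Snorc 0.81 ± 0.20 (adjusted p = 0.00144). By role, 6 of 8 collagens, 6 of 12 proteoglycans and matrix proteins, 5 of 6 other secreted and membrane proteins, the 3 SOX factors and Fgfr3 were higher. Acan was higher by 0.53 ± 0.10 (adjusted p = 6e-05) and Sox9 by 0.68 ± 0.11 (adjusted p = 4.07e-06), and for Acan each drug library was above each imiquimod library. Col2a1 did not pass the test (-0.09 (adjusted p = 0.77)), and its drug libraries covered the imiquimod range. The genes called lower were Prg4 -0.51 ± 0.19 (adjusted p = 0.0361) and Trps1 -0.19 ± 0.07 (adjusted p = 0.0396), the same 2 genes that had risen with imiquimod on that day. Drug and imiquimod libraries did not overlap for 9 of 32 genes, against 10.5% of all genes tested.

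Of these 23 calls, 7 were lost when one or another library was left out. Prg4 was lost without imiquimod library 29 or 30 or drug library 32, 33, 34 or 35 (adjusted p 0.052 to 0.142). Trps1 was lost without imiquimod library 25, 26 or 27 or drug library 31, 32, 34 or 35 (0.0582 to 0.115). Cilp was lost without imiquimod library 25, 29 or 30 or drug library 32 or 34 (0.0549 to 0.0876), and Col9a2 without imiquimod library 25 or 29 or drug library 34 or 35 (0.0506 to 0.0807). Comp was lost without imiquimod library 29 or 30 or drug library 34 (0.051 to 0.0817). Col10a1 and Col9a1 were lost without drug library 34 (adjusted p 0.0598 and 0.0663). Calls were gained for Col11a1 without imiquimod library 26, 27 or 28 or drug library 31, 33 or 36 (0.0291 to 0.0498), and for Epyc, as lower, without imiquimod library 30 or drug library 31, 34 or 36 (0.0347 to 0.0493). DESeq2 also called Epyc lower with all libraries in (-1.08, adjusted p = 0.0452).

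At day 8 no cartilage gene was called with the drug by edgeR or DESeq2, where 1.22% of all genes were called higher and 0.335% lower by edgeR. The log2 fold changes ran from -0.51 for Epyc to 0.45 for Cytl1, 24 of 32 were positive, 5 had an unadjusted p under 0.05, and the median was 0.14. Acan differed by 0.19 (adjusted p = 0.386) and Sox9 by 0.25 (adjusted p = 0.271). The test of whether the drug effect differed among days 2, 5 and 8 was passed by 1 gene, Sox9 (adjusted p = 0.025), against 7.99% of all genes, and 8 genes had an unadjusted p under 0.05. The Sox9 difference was 0.08, 0.68 and 0.25 at days 2, 5 and 8. For the other genes, a call at day 5 and none at day 8 is therefore not shown to be a difference between the days.

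Start-day ears had a higher level of the set with the drug whichever day it began. With the drug from day 0, 21 genes were called higher and 1 lower (18.2% and 16.9% of all genes). With the drug from day 3, 22 were higher and 1 lower (18% and 16.4%), and with the drug from day 5, 18 were higher and 1 lower (15% and 12.7%). The medians were 0.39, 0.37 and 0.30, against 0.01 over all genes. The gene called lower was Prg4 each time, with -0.46 ± 0.12 (adjusted p = 0.00376) from day 0, -0.57 ± 0.12 (adjusted p = 0.000617) from day 3 and -0.47 ± 0.12 (adjusted p = 0.00427) from day 5. These 3 comparisons share their 6 imiquimod libraries.

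The most positive genes with the drug from day 0 were Clec3a 0.90 ± 0.21 (adjusted p = 0.00114), Cytl1 0.85 ± 0.08 (adjusted p = 2.83e-08) and Chad 0.84 ± 0.08 (adjusted p = 1.82e-08). From day 3 they were Cnmd 0.91 ± 0.10 (adjusted p = 1.84e-07), Col9a1 0.84 ± 0.10 (adjusted p = 6.39e-07) and Clec3a 0.80 ± 0.21 (adjusted p = 0.00378). From day 5 they were Clec3a 0.84 ± 0.21 (adjusted p = 0.00302), Cnmd 0.82 ± 0.10 (adjusted p = 2.69e-06) and Col9a1 0.71 ± 0.11 (adjusted p = 1.5e-05). Clec3a was among the 3 most positive genes for each start, but it rested on few counts, with 0.606 to 1.38 CPM in the imiquimod libraries. Acan was higher by 0.39, 0.36 and 0.29 for days 0, 3 and 5 (adjusted p = 1.47e-05, 4.62e-05 and 0.000808), and each drug library of Sox9 and Acan was above each imiquimod library for each of the 3 starts. Col2a1 was called with the drug from day 3 (0.54 (adjusted p = 0.00875)) and day 5 (0.56 (adjusted p = 0.00866)) and not from day 0 (0.35 (adjusted p = 0.0858)). An F test among the 3 drug groups called 0 of 32 genes by edgeR and 0 by DESeq2, with 3 at an unadjusted p under 0.05, where 0.00542% of all genes were called. Hence no difference between start days was detected for the set at these group sizes.

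A few start-day calls lay near the threshold and changed with one or another library left out. The log2 fold change was 0.25 to 0.34 for Mia from day 0 where its call was lost (0.33 with all libraries) and 0.20 to 0.26 for Hapln1 from day 3 (0.25 with all libraries). With the drug from day 0, Hapln1 was lost without imiquimod library 12 or drug library 30 (adjusted p 0.0515 to 0.0835) and Mia without imiquimod library 7, 10 or 11 or drug library 25, 28 or 30 (0.0516 to 0.137), while Matn3 was gained without drug library 28 or 29 (0.023 to 0.0445). From day 3, Sox5 was lost without drug library 22 (0.0905) and Hapln1 without imiquimod library 7, 8, 9 or 12 or drug library 21, 22, 23 or 24 (0.0516 to 0.127). From day 5, Mia was gained without imiquimod library 12 or drug library 14, 15 or 17 (0.0416 to 0.0483) and Chadl without imiquimod library 12 (0.0447). Day 5 of the time course and the drug from day 0, which share no libraries, each called 21 genes higher, and 19 of them were the same. The overlap of these calls over all genes was not counted. Col10a1 and Chadl were called at day 5 alone, and Col11a1 and Hapln1 from day 0 alone. In the joint fit, the drug effect from day 0 differed from that at day 8 for 2 genes, Cilp (0.78, adjusted p = 0.026) and Cilp2 (0.53, adjusted p = 0.0294), against 0.828% of all genes, and 13 had an unadjusted p under 0.05.

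The drug left the set well below sham. Against sham, 26 genes were lower at day 2, 25 at day 5 and 27 at day 8, where 20.1%, 29.3% and 32.6% of all genes were lower. Start-day counts were 27 genes lower with the drug from day 0, 27 from day 3 and 27 from day 5, against 37.6%, 38.1% and 38.1% of all genes. The medians were -0.84, -0.78 and -1.21 at days 2, 5 and 8, and -1.43, -1.37 and -1.41 for the starts at days 0, 3 and 5. Lowest at day 2 were Matn3 -2.04 ± 0.32 (adjusted p = 7.3e-07), Col11a2 -1.82 ± 0.16 (adjusted p = 1.4e-12) and Col9a3 -1.42 ± 0.17 (adjusted p = 6.27e-09), and Prg4 was higher by 1.45 ± 0.20 (adjusted p = 1.26e-07). At day 5 they were Snorc -1.57 ± 0.20 (adjusted p = 3.07e-09), Col9a2 -1.51 ± 0.20 (adjusted p = 7.91e-09) and Chadl -1.50 ± 0.17 (adjusted p = 1.47e-10), with Prg4 1.47 ± 0.23 (adjusted p = 6.26e-07) and Trps1 0.21 ± 0.08 (adjusted p = 0.0275) higher. At day 8 they were Snorc -1.93 ± 0.19 (adjusted p = 1.74e-12), Chadl -1.73 ± 0.16 (adjusted p = 2.29e-13) and Chad -1.72 ± 0.13 (adjusted p = 1.38e-15), with Prg4 0.73 ± 0.20 (adjusted p = 0.00154), Col2a1 0.45 ± 0.19 (adjusted p = 0.0362) and Trps1 0.29 ± 0.07 (adjusted p = 0.000706) higher. Of all genes, 24.2%, 31.1% and 34.2% were called higher than sham at days 2, 5 and 8. Matn3 rested on few counts at day 2, with 0.275 to 0.922 CPM with the drug. The drug groups share their sham and imiquimod libraries with the comparisons above.

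In the start-day experiment the lowest were Chad -2.32 ± 0.08 (adjusted p = 7.67e-21), Chadl -2.27 ± 0.12 (adjusted p = 3.51e-18) and Snorc -2.11 ± 0.13 (adjusted p = 9.56e-16) from day 0, Chad -2.43 ± 0.08 (adjusted p = 2.58e-21), Chadl -2.21 ± 0.11 (adjusted p = 4.64e-18) and Snorc -2.05 ± 0.13 (adjusted p = 1.4e-15) from day 3 and Chad -2.54 ± 0.08 (adjusted p = 9.41e-22), Snorc -2.26 ± 0.13 (adjusted p = 1.64e-16) and Cilp2 -2.18 ± 0.09 (adjusted p = 2.99e-20) from day 5. No cartilage gene was called higher than sham there, against 36.7%, 36.6% and 37.4% of all genes for starts at days 0, 3 and 5. Chondroadherin and Snorc therefore stood among the lowest genes against sham with the drug as they did without it.

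Genes around the set were read from lists of related genes. Of 19 genes that build and sulphate the sugar chains of proteoglycans, 11 fell and 5 rose with imiquimod at day 8 (33.6% and 34.5% of all genes), and the list median was -0.31 against -0.01 over all genes. The smallest adjusted p-values belonged to Chst12 -0.88 (adjusted p = 2.6e-14), Xylt1 -1.03 (adjusted p = 1.59e-13), Chst3 -1.53 (adjusted p = 9.68e-10) and Csgalnact1 -0.75 (adjusted p = 1.35e-09). Xylt1 starts the chains, Csgalnact1 begins chondroitin, and Chst3 and Chst12 sulphate it. With imiquimod at day 5, 8 of the 19 fell and 2 rose, against 35.9% and 34.6% of all genes. With the drug at day 5, 4 of the 19 were higher and 5 lower, shares near the 18.3% and 17.2% of all genes, and the called genes of smallest adjusted p were Slc26a2 0.47 (adjusted p = 7.43e-08), Chst3 1.42 (adjusted p = 3.08e-07), Ust 0.44 (adjusted p = 7.94e-05) and Chsy1 -0.34 (adjusted p = 0.00375). Slc26a2 carries sulphate into chondrocytes.

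Of 14 tested genes of chondrocyte signalling and patterning (16 listed), 9 fell and 0 rose with imiquimod at day 8 (33.6% and 34.5% of all genes), with a list median of -0.96. They included Bmp4 -1.72 (adjusted p = 3.74e-16), Gdf5 -2.22 (adjusted p = 4.85e-16), Fgf18 -2.15 (adjusted p = 4.73e-14) and Pth1r -0.97 (adjusted p = 2.98e-13), which code for growth factors of cartilage and the receptor of parathyroid hormone-related protein. With imiquimod at day 5, 11 of the 14 fell and 2 rose, against 35.9% and 34.6% of all genes. With the drug at day 5, 6 were higher and 3 lower (18.3% and 17.2% of all genes). The smallest adjusted p-values were those of Bmp4 1.03 (adjusted p = 1.63e-07), Pthlh 1.05 (adjusted p = 5.85e-06), Runx3 -1.02 (adjusted p = 6.59e-06) and Bmp2 0.85 (adjusted p = 1.01e-05). Runx3, a transcription factor also used by lymphocytes, was lower.

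Enzymes that break down cartilage matrix and their inhibitors moved in both directions with imiquimod, and at day 8 their shares were near the background. Of 11 genes, 4 fell and 4 rose with imiquimod at day 8, where 33.6% and 34.5% of all genes were lower and higher. The inhibitors Timp2 and Timp3 and the protease Htra1 fell and the inhibitor Timp1 rose, with Timp2 -1.01 (adjusted p = 2.74e-20), Timp3 -1.23 (adjusted p = 3.73e-18), Htra1 -0.71 (adjusted p = 2.85e-15) and Timp1 2.80 (adjusted p = 2.73e-08). Mmp13, the collagenase that cuts type II collagen, and Adamts4, an aggrecanase, were picked after their values were seen, and both rose, with Mmp13 3.06 (adjusted p = 2.52e-05) and Adamts4 1.65 (adjusted p = 8.98e-05). Apart from Htra1, the other enzymes of the list are given by count only at day 8. With imiquimod at day 5, 5 of the 11 genes fell and 6 rose, against 35.9% and 34.6% of all genes. At day 2, 5 fell and 4 rose, against 28.5% and 29.2%. With the drug at day 5, 7 were lower and 3 higher (17.2% and 18.3% of all genes), with Mmp14 -0.49 (adjusted p = 7.92e-08), Adamts5 -0.79 (adjusted p = 6.54e-07), Adamts4 -1.95 (adjusted p = 1.15e-05) and Timp3 0.45 (adjusted p = 3.02e-05). Adamts5 is the other main aggrecanase, and Mmp14 a membrane protease. These enzymes are also made by fibroblasts and leukocytes of the dermis.

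Markers of other deep tissues of the punch moved in the same direction as cartilage. With imiquimod at day 8, 33.6% of all genes were lower and 34.5% higher. Among these markers, 11 of 12 skeletal muscle, 11 of 11 adipocyte, 8 of 8 Schwann cell and 5 of 6 tendon and ligament markers fell and none rose. The summed muscle level was 2177 to 3380.0 CPM in imiquimod ears and 3131 to 6126 CPM in sham ears, and the summed adipocyte level was 302 to 396 CPM in imiquimod ears and 595 to 854 CPM in sham ears. The summed Schwann cell level was 334 to 487 CPM in imiquimod ears and 1009.5 to 1277 CPM in sham ears, and the summed tendon level was 325 to 381 CPM in imiquimod ears and 728 to 890.2 CPM in sham ears. Muscle ranges overlapped, and the others did not. Keratinocyte markers rose, 7 of 8 with none lower, and their summed level was 62310.0 to 71133 CPM in imiquimod ears and 28103 to 31319 CPM in sham ears. Leukocyte markers rose in 8 of 9 cases, with Cd3e of T cells lower, and summed to 444 to 640.0 CPM in imiquimod ears and 165 to 197 CPM in sham ears. Fibroblast markers split, 4 lower and 5 higher of 10, and summed to 8419 to 10436 CPM in imiquimod ears and 7662 to 10819 CPM in sham ears. At day 2, 6 fibroblast markers were lower and 0 higher, against 28.5% and 29.2% of all genes. At day 5, 4 were lower and 4 higher, against 35.9% and 34.6%. The part of these changes in the cartilage result was not tested.

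Bone was nearly silent in the punch. Of 8 bone markers 4 were tested, of which 1 fell and 2 rose at day 8 (33.6% and 34.5% of all genes). All 8 summed to 8.77 to 9.65 CPM in imiquimod ears and 4.36 to 6.32 CPM in sham ears. Mepe, a marker of osteocytes, had at most 1 count in any of these libraries.

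With the drug at day 5 the same tissues moved with cartilage again. Of the markers, 8 of 12 for muscle, 11 of 11 for adipocytes, 8 of 8 for Schwann cells and 4 of 6 for tendon were higher, with 1 tendon marker lower, and 8 of 9 leukocyte and 8 of 10 fibroblast markers were lower, with 1 of each higher. Of the other lists, 1 of 8 keratinocyte markers was higher and 1 lower, and 1 of 4 bone markers was lower. In this comparison 18.3% of all genes were higher and 17.2% lower. The summed muscle level was 2533 to 4269 CPM with the drug and 2049 to 3283 CPM with imiquimod alone, and the summed adipocyte level was 399 to 678 CPM with the drug and 312 to 389.8 CPM with imiquimod alone. The summed Schwann cell level was 418 to 555 CPM with the drug and 312 to 374 CPM with imiquimod alone, and the leukocyte sum was 201 to 673 CPM with the drug and 586 to 960.4 CPM with imiquimod alone. The tendon sum was 357 to 522 CPM with the drug and 347 to 407 CPM with imiquimod alone, and the fibroblast sum was 5429 to 7471 CPM with the drug and 8132 to 9720.0 CPM with imiquimod alone. The keratinocyte sum was 53862 to 64897 CPM with the drug and 48823 to 60993 CPM with imiquimod alone, and the sum of the 8 bone markers was 4.71 to 12.4 CPM with the drug and 12.8 to 19.8 CPM with imiquimod alone. The adipocyte, Schwann cell, fibroblast and bone ranges did not overlap, and the muscle, tendon, keratinocyte and leukocyte ranges did. With the drug from day 0, 18.2% of all genes were higher and 16.9% lower. There, 12 of 12 muscle, 9 of 11 adipocyte, 7 of 8 Schwann cell and 4 of 6 tendon markers were higher. Whether the higher cartilage genes follow from these changes was not tested.

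Within groups, libraries with more Acan tended to have more of the rest of the set. Deviations from the group mean of log2 CPM were correlated with those of Acan for 31 genes in each experiment. In the time course (52 libraries) 28 of 31 correlations were positive, 17 passed an adjusted p of 0.05, and the median r was 0.398. In the start-day experiment (30 libraries) 28 were positive, 9 passed, and the median r was 0.358. Correlations of Acan with genes outside the set were not computed, so these counts have no background share beside them. Col27a1 was among the closest in both. In the time course it had Pearson's r = 0.732 (permutation p = 2e-05, adjusted 7e-05) and Spearman's rho = 0.709 (permutation p = 2e-05, adjusted 7e-05), with r = 0.692 without the 2 libraries farthest from the median of Acan. The start-day values were Pearson's r = 0.67 (permutation p = 0.00021, adjusted 0.00548) and Spearman's rho = 0.68 (permutation p = 0.00013, adjusted 0.00201), with r = 0.658 without the 2 libraries farthest from the median of Acan. Cnmd had the highest value in the time course, Pearson's r = 0.76 (permutation p = 1e-05, adjusted 4e-05) and Spearman's rho = 0.721 (permutation p = 1e-05, adjusted 5e-05), with r = 0.708 without the 2 libraries farthest from the median of Acan. In the other experiment it had Pearson's r = 0.138 (permutation p = 0.512, adjusted 0.635) and Spearman's rho = 0.203 (permutation p = 0.325, adjusted 0.42), with r = 0.169 without the 2 libraries farthest from the median of Acan. Sox9 followed Acan in the time course, with Pearson's r = 0.658 (permutation p = 1e-05, adjusted 4e-05) and Spearman's rho = 0.653 (permutation p = 2e-05, adjusted 7e-05), with r = 0.619 without the 2 libraries farthest from the median of Acan. It did not pass in the start-day experiment, with Pearson's r = -0.018 (permutation p = 0.935, adjusted 0.935) and Spearman's rho = 0.004 (permutation p = 0.986, adjusted 0.986), with r = -0.037 without the 2 libraries farthest from the median of Acan. Both genes of a pair come from the same library and share its scaling, its tissue content and its depth, and the difference between experiments was not tested.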

How the data were processed

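RNA of right ear punches was made into mRNA libraries with the Universal Plus mRNA kit, per the labels' protocols. Per gene, the authors deposited estimated counts, made with salmon going by the table names, and on GRCm39 per the submitters' processing notes. Salmon's version, the annotation release and strand handling are not stated in the labels used here. Columns were matched to samples by title, with 0 left over. Some values were fractional and were rounded to whole counts. The lowest chi-square per gene between libraries of a group was 4.13, and none looked like a copy of another.

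Both experiments were fitted apart in edgeR 4.0.16 (R 4.3.3, limma 3.58.1) with filterByExpr on group, TMM scaling, 1 coefficient per group and the robust quasi-likelihood F test, with Benjamini-Hochberg adjustment over all genes tested and calls at 0.05. The fit was checked and tested on simulated data. Log2 CPM used a prior count of 2. Ratios were tested by exact permutation and correlations by 100000 permutations within groups (numpy 2.4.6, scipy 1.17.1, pandas 2.3.3). Figures were drawn with matplotlib 3.10.9. Alternatives were DESeq2 1.42.0, RLE scaling, no filter, a filter of at least 1 CPM, a fit of only the groups compared, a prior count of 0.5 for the ratios and each library left out in turn. Depth of 13.1 M to 35.5 M counts makes counting error large only for genes of few counts, such as Scrg1.

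The cartilage genes and the gene lists were chosen with earlier results of these data known. All 33 genes are named. Lowest, median and highest levels are given in each group for Acan, Col2a1, Col11a2 and Sox9, and at day 8 for Comp, Hapln1, Cnmd, Cilp and Prg4. In each comparison the 3 most negative and 3 most positive called genes are given, and from other lists at most 4 called genes by smallest adjusted p, or those that go against their list. Mmp13 and Adamts4 at day 8 were added after their values were seen.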

Additional observations from a re-analysis of the deposited data

Results flagged for a closer look

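A library stood far from the others of its group in 3 of 85 groups of values examined, where chance gives about 1 in 20. Imiquimod library 7 at day 2 had 34.5 CPM of Col2a1, and the others of its group had 19.8 to 24.8 CPM. Sham library 38 at day 8 had 118 CPM of Col11a2, and the others had 150.3 to 166 CPM. Sham library 40 at day 8 had 37.3 CPM of Prg4, and the others had 14.2 to 20.6 CPM.

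The imiquimod effect differed among days 2, 5 and 8 for 13 of 32 cartilage genes, near the share of all genes (33.4%). The edgeR adjusted p-values were Cilp2 6.34e-09, Cytl1 2.01e-07, Chad 2.04e-06, Sox9 0.000414, Col2a1 0.00128, Sox5 0.00156, Col27a1 0.00261, Sox6 0.00718, Comp 0.00783, Chadl 0.00814, Prg4 0.0123, Ucma 0.0209 and Hapln1 0.0362. The drug effect differed among days for Sox9 (7.99% of all genes), with an adjusted p of 0.025. Between the start-day experiment and day 8 of the time course, the imiquimod effect differed for 13 genes (21.4% of all genes), with adjusted p-values of Cilp2 8.39e-10, Comp 5.61e-09, Chad 2.16e-07, Cilp 4.9e-06, Cytl1 0.000212, Col11a1 0.000481, Sox6 0.00433, Sox5 0.00582, Acan 0.0225, Col9a1 0.0233, Snorc 0.0255, Clec3a 0.0262 and Ucma 0.027. The drug effect from day 0 differed from that at day 8 (0.828% of all genes) for Cilp (adjusted p = 0.026) and Cilp2 (0.0294).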

How the results depend on the processing

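No paired analysis was possible because the groups compared share no replicate numbers. The counts of genes lower with imiquimod, and lower with the drug against sham, stayed within 1.5 times under DESeq2, RLE scaling, no filter, a filter of 1 CPM, only the groups compared and each library left out. The counts that moved more concern the drug. At day 2 the 2 calls became 1 with no filter, 0 in a fit of only the groups compared, 4 with DESeq2, and 1 to 6 with a library left out. Without both imiquimod libraries 9 and 11 of day 2, chosen after seeing the data, they became 0, and 26 genes were then lower with imiquimod at day 2. The single gene whose drug effect differed among days became 0 with no filter and 0 to 2 with a library left out, and the 0 calls of day 8 became 1 in a fit of only the groups compared. The day 5 drug calls were 17 to 25 with a library left out. Hapln1 with the drug from day 3 was lost with RLE scaling (adjusted p = 0.0626) and DESeq2 (0.0551). Calls were gained for Epyc with imiquimod at day 5 under RLE scaling (0.0487) and DESeq2 (0.0411), and under DESeq2 for Epyc with the drug at day 5 (0.0452) and Col9a2 (0.0399) and Chadl (0.0361) with the drug at day 2. RLE scaling moved the median of all genes by less than 0.03. For the ratios to Acan, leaving out a library gave Col2a1 differences of 0.22 to 0.41 at day 2, Col9a1 -0.53 to -0.38 at day 2, -0.41 to -0.27 at day 5 and -0.21 to -0.04 at day 8, Col11a2 -0.15 to -0.06 at day 8, and Sox9 -0.16 to -0.07 at day 5 and -0.064 to 0.0617 at day 8. The cause was not tested.

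Leaving out a library turned the sign of 28 log2 fold changes, none of them called with all libraries in. For the drug at day 2 the ranges were Chst11 -0.0319 to 0.106, Clec3a -0.101 to 0.204, Col2a1 -0.0533 to 0.183, Comp -0.118 to 0.000500, Mia -0.0182 to 0.245 and Prg4 -0.18 to 0.000100. For the drug at day 5 the ranges were Col2a1 -0.271 to 0.0253, Matn3 -0.11 to 0.343, Matn4 -0.021 to 0.215 and Ucma -0.0088 to 0.213. For the drug at day 8 the ranges were Cilp -0.106 to 0.0432, Clec3a -0.366 to 0.0353, Hapln1 -0.0431 to 0.0644, Matn1 -0.0024 to 0.242, Matn3 -0.346 to 0.0972, Matn4 -0.118 to 0.0508, Trps1 -0.0403 to 0.0138 and Ucma -0.0952 to 0.0653. For the drug from day 0 the ranges were Col10a1 -0.0787 to 0.0927, Epyc -0.0419 to 0.267 and Ucma -0.12 to 0.0176. For the drug from day 5 the ranges were Col10a1 -0.136 to 0.0354, Epyc -0.367 to 0.149, Matn1 -0.158 to 0.0671 and Ucma -0.106 to 0.0196. For imiquimod at day 2 the ranges were Cytl1 -0.157 to 0.0264 and Epyc -0.33 to 0.151. For imiquimod at day 8 the ranges were Matn1 -0.126 to 0.118. Depth limits Scrg1 and the genes of few counts.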
